A study of Drosophila melanogaster with 12 samples.

Results

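The piRNAs bound to Ago3 in ovaries of csulRM50 mutant flies were compared with those bound to Ago3 in ovaries of w1118 flies. The comparison rests on 2 of the 12 libraries of the series, 1 library per genotype, and on the 125 of 126 transposons that had reads in either of them. No measured value was used to choose these libraries, and the transposons were kept only for having reads. Which transposons are named below depended in part on their values. The question was how the Ago3 piRNA population looks when Capsuleen (Csul), the fly PRMT5 methyltransferase, is lost.

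piRNAs are small RNAs that guide PIWI proteins to transposon transcripts in the gonads. In the germ cells of the fly ovary, Aub and Ago3 make up the ping-pong cycle: Aub loaded with piRNAs antisense to transposons cuts sense transcripts, the fragments become sense piRNAs in Ago3, and Ago3 in turn cuts antisense piRNA precursors. The arginines near the amino terminus of Aub and Ago3 carry symmetrical dimethylation, which Csul deposits and which Tudor domain proteins of the nuage can bind. In the follicle cells that surround the germ cells only Piwi acts, mainly with antisense piRNAs of the flamenco locus against gypsy and its relatives.

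csulRM50 is a loss-of-function allele of csul, kept as a stock balanced over CyO in a white-eyed background. w1118 is a standard laboratory stock with a null allele of white. No sibling control was stated, so the csul genotype and the strain background of each stock cannot be told apart, and whether the dissected csulRM50 females were homozygous is not given in the sources used here. All flies were 2 to 5 d old and yeast fed, the same anti-Ago3 antibody from the Siomi laboratory was used for both genotypes, and both libraries were built by the same protocol without a random barcode, so PCR duplicates were kept. Whole ovaries were used: fewer cells of a type and less piRNA per cell cannot be told apart. The authors report less Aub, Ago3 and Tud protein after csul knockdown, similar to their earlier report for csulRM50. The values here are shares of each library and do not show the amount of piRNA bound to Ago3. With 1 library per genotype no difference has a replicate check and no p-value was computed. Intervals are 95% intervals that cover counting error only and take each read copy as an independent draw.

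The csulRM50 library held 8543745 read copies on transposons and the w1118 library 9086040. A read copy is 1 sequenced read; an entry counts identical reads once, and there were 1036054 entries in csulRM50 and 1233235 in w1118. Totals over the 12 libraries of the series ran between 1338017 and 47217032 read copies. The Ago3 label could be checked against the known strand bias of the protein only in relation to Aub. The sense share was 47.0% in Ago3 csulRM50 against 31.5% in Aub csulRM50, and 41.9% in Ago3 w1118 against 21.6% in Aub w1118. Ago3 thus held the larger sense share in both genotypes, but most read copies of both Ago3 libraries were antisense. The files hold transposons and no genes, so neither the csul transcript nor markers of ovarian cell types could be looked up.

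Ago3 of csulRM50 ovaries held a larger share of sense read copies than Ago3 of w1118 ovaries. The sense share was 47.0% (Wilson interval 47.0 to 47.1) in csulRM50 and 41.9% (41.9 to 41.9) in w1118, a difference of 5.13 percentage points (5.08 to 5.18). With entries in place of read copies the difference was 1.69 points. With each transposon held at its w1118 abundance, the csulRM50 sense shares gave 46.6%. Over single transposons the picture was mixed. Of the 121 with at least 50 read copies in both libraries, 64 had a higher and 57 a lower sense share in csulRM50, and the median change was 0.90 points. With entries, 61 of 119 were higher and 58 lower, with a median of 0.09 points.

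Abundance was compared per transposon and orientation as log2(CPM + 1), with CPM the read copies scaled to a library total of 1000000 on transposons, csulRM50 minus w1118. The median change was −0.60 for antisense and −0.54 for sense piRNAs, and each change was centred on the median of its orientation. A centred change past 1 in size, a 2-fold difference from the median transposon, is called here higher or lower. Among the 113 transposons tested for antisense piRNAs, those with a mean of at least 100 read copies, 22 (19.5%) were higher and 21 (18.6%) lower in csulRM50. For sense piRNAs, 21 of 113 (18.6%) were higher and 18 (15.9%) lower. Without centring the split was 12 higher and 38 lower for antisense and 9 higher and 37 lower for sense piRNAs. With each read copy taken as an independent draw, counting error was small beside these changes, with a median margin of 0.035 to either side on the log2 scale and at most 0.51. PCR duplicates were kept and a read may be counted on several transposons, so these margins may be too narrow.

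Both orientations of a transposon mostly moved together. Over the 112 tested in both, the Pearson correlation of sense with antisense changes was 0.85, as a description over transposons that share 2 libraries. In csulRM50, 14 transposons were higher in both orientations: 1731, Burdock, Juan, R1A1-element, Stalker2, TART-B, copia, flea, gypsy, invader3, jockey, mdg3, micropia and opus. A further 13 were lower in both: Doc4-element, G5, Helena, Osvaldo, TART-C, Tc1, Tirant, accord2, gypsy12, gypsy8, gypsy9, looper1 and transib3. With entries, only 1731, Burdock, TART-B, gypsy, mdg3, micropia and opus of the 14 stayed past 2-fold in both orientations. Of the 13, only Doc4-element, G5, Osvaldo, TART-C, Tc1, Tirant, accord2 and transib3 did. Stalker2 had an antisense change of 1.09 with read copies and 0.31 with entries. The antisense change of R1A1-element lay at the limit, and its values under other settings are given with the rDNA elements. Blood alone was lower in one orientation and higher in the other.

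**Figure D1:**
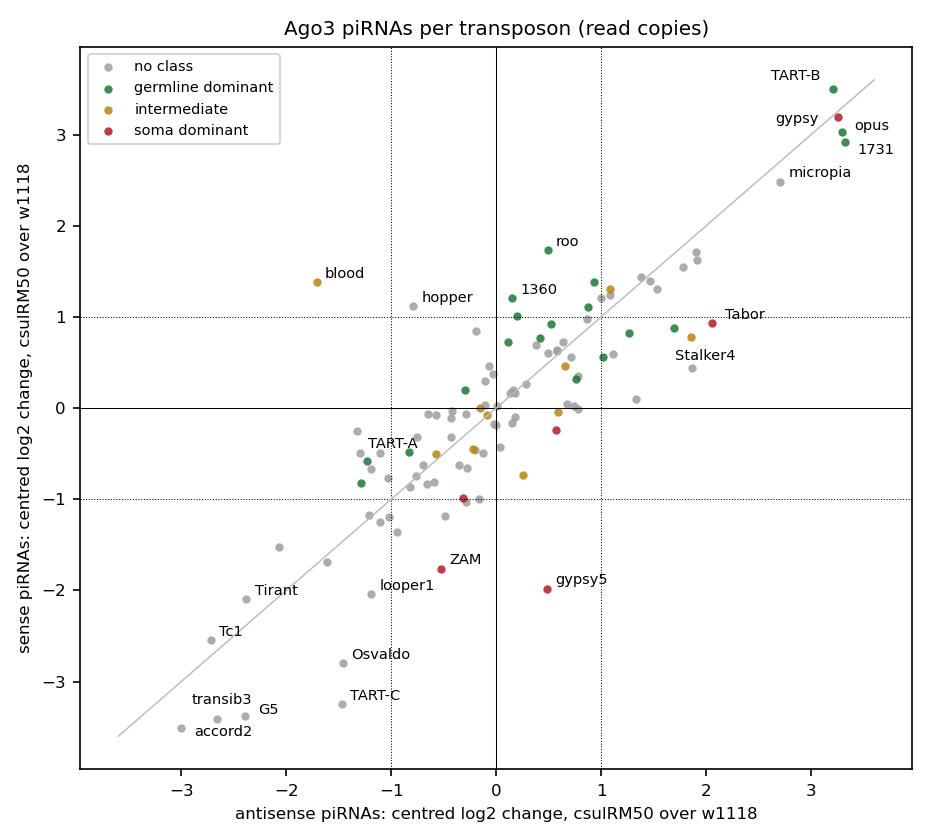
Centred log2 change of antisense (x) and sense (y) Ago3 piRNAs, csulRM50 over w1118, for each transposon tested in both orientations. Dotted lines mark 2-fold, the grey diagonal equal change, and colours the classes given in the files. TART-B, opus, 1731 and gypsy stand apart at the upper right, accord2, transib3 and G5 at the lower left, and blood is the only one past 2-fold in opposite directions, at the upper left.

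The transposons with the largest rise were elements of several kinds. TART-B, a telomeric retrotransposon that helps to maintain chromosome ends, had 23863 antisense CPM in csulRM50 and 3926 in w1118, a centred change of 3.21. Its sense piRNAs were at 34799 CPM in csulRM50 and 4459 in w1118, a centred change of 3.50 and the largest rise of the sense piRNAs tested. In csulRM50 it was the fourth most abundant transposon by read copies, and in w1118 it ranked 35.

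Opus, an LTR retrotransposon of the gypsy group, had 36402 antisense CPM in csulRM50 and 5655 in w1118 (centred change 3.29), and 19927 sense CPM in csulRM50 and 3549 in w1118 (3.03). 1731, an LTR retrotransposon of the copia group, had 11196 antisense CPM in csulRM50 and 1702 in w1118 (3.32), and 17323 sense CPM in csulRM50 and 3320 in w1118 (2.92). These elements, together with TART-B, made up 14.4% of the csulRM50 library against 2.26% of the w1118 library. The counting interval of the plain CPM ratio was 6.01 to 6.15 for antisense TART-B, 6.38 to 6.50 for antisense opus and 6.47 to 6.69 for antisense 1731.

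Gypsy, an LTR retrotransposon with an envelope gene that is known for its silencing in follicle cells, reached a similar fold from a lower level. It had 3098 antisense CPM in csulRM50 and 494 in w1118 (centred change 3.25), and 2525 sense CPM in csulRM50 and 400.4 in w1118 (3.19). Its sense share was 44.9% in csulRM50 and 44.8% in w1118, and the plain CPM ratio was 6.28 for antisense and 6.31 for sense piRNAs. Micropia, of the gypsy group, followed with centred changes of 2.70 for antisense and 2.48 for sense piRNAs. Mdg3 and Burdock, also of the gypsy group and higher in both orientations, had antisense changes of 1.90 and 1.91 and sense changes of 1.71 and 1.62. Juan, a non-LTR retrotransposon of the jockey clade, had 1.78 for antisense and 1.55 for sense.

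The transposons with the largest fall were mostly of low abundance in csulRM50. Accord2, an LTR retrotransposon of the gypsy group, had 176 antisense CPM in csulRM50 and 2147 in w1118 (centred change −2.998), and 222 sense CPM in csulRM50 and 3685 in w1118 (−3.51). It was the lowest of the tested transposons in both orientations. G5, a jockey clade element, had 114 antisense CPM in csulRM50 and 915 in w1118 (−2.39), and 63.4 sense CPM in csulRM50 and 974 in w1118 (−3.38).

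Of the DNA transposons, which move by cut and paste, Tc1 and transib3 were among the lowest. Tc1 had 4.21 antisense CPM in csulRM50 and 51.2 in w1118 (centred change −2.72), and 10.7 sense CPM in csulRM50 and 97.7 in w1118 (−2.54). Transib3 had 7.02 antisense CPM in csulRM50 and 76.2 in w1118 (−2.66), and 7.14 sense CPM in csulRM50 and 124 in w1118 (−3.41). These values rest on few reads: the csulRM50 library held 127 read copies of Tc1 and 121 of transib3, against 1353 and 1822 in w1118.

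Tirant, a gypsy-group element, had 48.0 antisense CPM in csulRM50 and 387 in w1118 (centred change −2.38), and 28.8 sense CPM in csulRM50 and 184 in w1118 (−2.09). Osvaldo, an LTR element, was uneven: it had 281 antisense CPM in csulRM50 and 1177 in w1118 (−1.46), but 201 sense CPM in csulRM50 and 2042 in w1118 (−2.80). Doc4-element, of the jockey clade, had changes of −2.07 for antisense and −1.52 for sense piRNAs. Gypsy8 had −1.61 and −1.69, and looper1, a DNA transposon, −1.19 and −2.04. P-element, the agent of P-M hybrid dysgenesis, had 1 read copy in csulRM50 and 0 in w1118, where 3 read copies, the limit that a count of 0 allows, are 0.33 CPM.

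Blood, an LTR retrotransposon of the gypsy group, differed in its strand. Its antisense piRNAs were at 4400 CPM in csulRM50 and 21905 in w1118 (centred change −1.71), while its sense piRNAs were at 4021 CPM in csulRM50 and 2242 in w1118 (1.38). The sense share was therefore 47.8% in csulRM50 and 9.29% in w1118, the largest rise of all tested, 38.5 points (38.1 to 38.9). In the other Ago3 libraries of the series, made with another protocol and set beside it as values only, blood had a sense share of 50.6% in y w, 59.6% in aubWT and 55.3% in aubRK. The w1118 library thus stood apart from the other 4 Ago3 libraries for this element.

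Hopper, a DNA transposon, had 292 antisense CPM in csulRM50 and 771 in w1118 (centred change −0.79), and 484 sense CPM in csulRM50 and 324 in w1118 (1.12). The sense share of hopper was 62.4% in csulRM50 and 29.6% in w1118, a rise of 32.8 points, and it was 54.9% in y w, 65.8% in aubWT and 53.9% in aubRK. Here too the w1118 library held the lowest share. With entries the antisense change of hopper was 0.21, the opposite direction, and its sense share differed by 10.1 points, whereas blood kept an antisense change of −1.11 and a difference of 30.03 points.

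Transib4, 1360 and G5A followed in the order of rising sense shares. Transib4 had 65.7% in csulRM50 and 45.4% in w1118, on only 70 and 119 read copies, and the interval of its difference ran from 5.63 to 33.6 points. 1360, an abundant DNA transposon related to the P-element, had 69.2% in csulRM50 and 50.8% in w1118. The change of 1360 was 18.4 points with read copies and 2.07 points with entries. G5A, of the jockey clade, had 73.0% in csulRM50 and 55.7% in w1118.

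Of the 5 germline dominant elements with the most read copies in csulRM50, 4 had a higher sense share there (Max-element, F-element, TART-B and Rt1b). It was higher for 13 of 19 in the class and 64 of 121 of all tested, and 4 of 5 cannot be set apart from these. Opus had a lower share, 35.4% in csulRM50 against 38.6% in w1118. The share of 1731 was lower as well, 60.7% in csulRM50 against 66.1% in w1118. Roo, a BEL/Pao element that is among the most numerous transposons of the fly, had 34471 antisense CPM in csulRM50 and 37336 in w1118 (centred change 0.49), but 13167 sense CPM in csulRM50 and 5760 in w1118 (1.73). Roo thus had a sense share of 27.6% in csulRM50 and 13.4% in w1118. F-element, of the jockey clade, had a sense share of 35.4% in csulRM50 and 23.0% in w1118, and Max-element, of the BEL/Pao group, had 22.6% in csulRM50 and 17.4% in w1118. Both were among the 5 most abundant transposons of each library by read copies.

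The transposons with a lower sense share were of several kinds. TART-C, a telomeric element, had a sense share of 29.3% in csulRM50 and 57.5% in w1118, the largest fall, −28.2 points (−28.9 to −27.6). Gypsy5, of the soma dominant class, had 9.64% in csulRM50 and 37.5% in w1118, a change of −27.9 points (−30.6 to −25.0). Its antisense piRNAs were at 115 CPM in csulRM50 and 125 in w1118 and its sense piRNAs at 12.3 CPM in csulRM50 and 75.2 in w1118, so the sense orientation carried the change. Osvaldo had 41.7% in csulRM50 and 63.4% in w1118 (−21.7 points), Tabor 26.4% in csulRM50 and 42.9% in w1118 (−16.5) and ZAM 18.6% in csulRM50 and 34.8% in w1118 (−16.2). With entries the change was −31.6 points for gypsy5, −14.4 for Tabor and −19.9 for ZAM, but −1.01 for Osvaldo and −13.03 for TART-C.

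Of the 121 transposons tested, 16 had a change in the sense share of over 10 points upward and 21 downward. The 21 included 4 of the 8 listed follicle cell elements (Tabor, ZAM, gtwin and gypsy5), but also the germline dominant 3S18 (−12.3 points), the intermediate 412 (−12.005) and Stalker4 (−11.9), the gypsy-group element HMS-Beagle (−15.8), the jockey clade element G5 (−15.8) and the DNA transposon mariner2 (−14.4). The median sense share was 47.2% in csulRM50 and 46.9% in w1118. Most read copies were sense for 54 transposons in csulRM50 and 49 in w1118. They were mostly sense in csulRM50 alone for 11 (BS, Doc3-element, G6, HB, R2-element, Rt1b, TART-A, hopper, invader5, invader6 and transib4) and in w1118 alone for 6 (G5, Osvaldo, TART-C, Transpac, looper1 and mariner2).

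**Figure D2:**
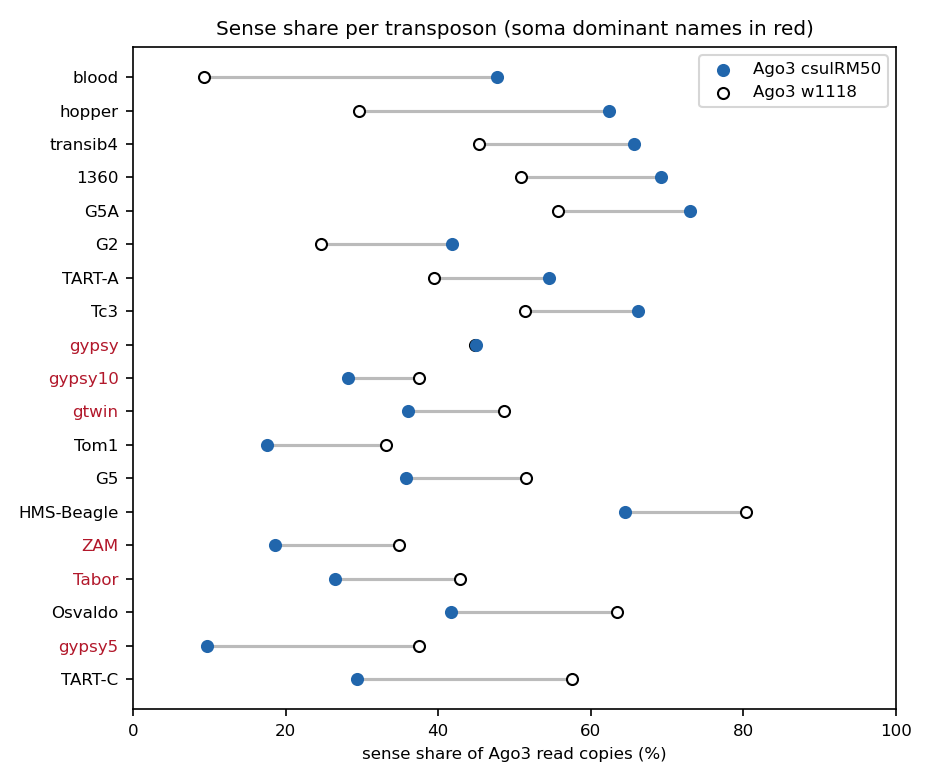
Sense share of Ago3 read copies (x, in percent) in csulRM50 (filled) and w1118 (open), 1 library each, for the 8 largest rises, the 8 largest falls and all soma dominant transposons (names in red), ordered by the change. Blood reaches 47.8% in csulRM50 against 9.29% in w1118, TART-C has 29.3% against 57.5%, and of the 6 soma dominant elements only gypsy has nearly the same share in both, 44.9% against 44.8%.

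The elements of the telomeres, HeT-A, TAHRE and TART, keep up chromosome ends in place of telomerase. Together they held 9.61% of the csulRM50 library and 9.01% of the w1118 library, but this near equality came from opposite changes. TART-B was 5.87% of the csulRM50 library and 0.838% of the w1118 library, whereas the others together, with TART-B left out of the totals, were 3.98% in csulRM50 and 8.24% in w1118. TART-C had 1762 antisense CPM in csulRM50 and 7429 in w1118 (centred change −1.47), and 730 sense CPM in csulRM50 and 10069 in w1118 (−3.24). TART-A had changes of −1.30 for antisense and −0.49 for sense piRNAs, and TAHRE −1.29 and −0.83.

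HeT-A, the telomeric element with the most read copies in w1118, had 19672 sense CPM in csulRM50 and 25021 in w1118 (centred change 0.19), and 4618 antisense CPM in csulRM50 and 8652 in w1118 (−0.30), with a sense share of 81.0% in csulRM50 and 74.3% in w1118. The sense share was higher in csulRM50 for 4 of the 5 telomeric elements, TART-C being the exception, against 64 of 121 of all tested. TART-A, TART-B and TART-C are subfamilies under 1 FlyBase identifier, and a read that matches several of them equally well can be counted on each. Summed, they were 6.55% of the csulRM50 library and 3.82% of the w1118 library, with a sense share of 57.9% in csulRM50 and 50.8% in w1118.

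Elements that insert into ribosomal RNA genes, and their relatives, held a steady part of the library, 13.3% in csulRM50 and 13.5% in w1118, with a sense share of 63.0% in csulRM50 and 55.7% in w1118. Of the 6 members, R1A1-element alone passed 2-fold upward, at 42726 sense CPM in csulRM50 and 26897 in w1118 (centred change 1.21) and 20921 antisense CPM in csulRM50 and 15895 in w1118 (1.00). Its antisense change was 0.63 with entries, 0.89 with TMM factors and 0.97 with DESeq2 size factors, and its sense change 0.80 with entries, all short of 2-fold. None was lower in either orientation. Over all tested transposons, 19.5% were higher and 18.6% lower in antisense piRNAs, and 18.6% were higher and 15.9% lower in sense piRNAs. Counts among 6 members cannot be set apart from these shares. Rt1b had a sense share of 60.6% in csulRM50 and 49.0% in w1118. Rt1a had 8681 sense CPM in csulRM50 and 19414 in w1118 (−0.62), and a sense share of 55.1% in csulRM50 and 58.5% in w1118. With entries its sense change was −0.074 and its sense share differed by 2.37 points, the opposite direction. R2-element had 56.6% in csulRM50 and 49.9% in w1118, while the intervals of the differences for R1-2 and Rt1c, which had few reads, included 0.

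Among the LTR retrotransposons, the gypsy group was 27.995% of the csulRM50 library and 28.2% of the w1118 library. For antisense piRNAs 13 of its 47 tested members were higher and 8 lower, and for sense piRNAs 9 of 46 were higher and 8 lower, with medians of 0.26 and −0.003 (all tested transposons: 0 by construction). Over all tested transposons 19.5% were higher and 18.6% lower in antisense and 18.6% higher and 15.9% lower in sense piRNAs, and most of these counts lie near those shares. Its sense share was lower in csulRM50 for 33 of 49 members (median −2.61 points), against 57 of 121 of all tested (median 0.90). The BEL/Pao group, at 15.2% of the csulRM50 and 15.03% of the w1118 library, had all 7 tested members above the median in antisense and 6 of 7 in sense piRNAs, yet only 3S18 (antisense) and roo (sense) passed 2-fold. The lowest antisense change among the 7 was 0.0067. TMM factors lowered antisense changes by 0.114 and DESeq2 size factors by 0.032, so with either that member fell below the centre. The copia group was 3.72% of the csulRM50 library and 1.19% of the w1118 library. With 1731 left out of the group and of the totals, it was 0.895% in csulRM50 and 0.695% in w1118.

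Among the non-LTR retrotransposons, the jockey clade was 19.1% of the csulRM50 library and 20.7% of the w1118 library. Its sense share was 44.1% in csulRM50 and 34.3% in w1118, and 16 of 20 listed members had a higher share in csulRM50 (median 4.02 points), against 64 of 121 of all tested (median 0.90). The list for the clade is not complete and left out Fw2 and Fw3. Both had a lower sense share in csulRM50, were lower in sense piRNAs and were not past 2-fold in Ago3 antisense piRNAs. In antisense piRNAs 2 of 19 listed members were higher and 7 lower, beside 19.5% and 18.6% of all tested. In sense piRNAs 5 of 19 were higher and 4 lower, beside 18.6% and 15.9%. G2, of this clade, had 4981 antisense CPM in csulRM50 and 18970 in w1118 (centred change −1.32), with a sense share of 41.8% in csulRM50 and 24.6% in w1118.

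DNA transposons were 3.98% of the csulRM50 library and 4.22% of the w1118 library, with a sense share of 64.6% in csulRM50 and 49.96% in w1118. Most of that difference lay in 1360, which gave 72.7% of their read copies in csulRM50 and 58.7% in w1118. Without it the sense share was 52.3% in csulRM50 and 48.7% in w1118. None of 15 tested was higher and 3 were lower in antisense piRNAs, and 2 of 16 were higher and 3 lower in sense piRNAs. Over all tested transposons, 19.5% were higher and 18.6% lower in antisense piRNAs, and 18.6% were higher and 15.9% lower in sense piRNAs. The counts of lower members were near these shares.

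Elements known for hybrid dysgenesis, the sterility that follows when the mother lacks piRNAs against an element the father brings in, had reads in both genotypes for I-element and hobo. I-element had 4886 antisense CPM in csulRM50 and 3667 in w1118 (centred change 1.02), and 5884 sense CPM in csulRM50 and 5795 in w1118 (0.56). Hobo had 550.3 antisense CPM in csulRM50 and 489 in w1118 (0.78), and 1503 sense CPM in csulRM50 and 1707 in w1118 (0.36). With entries both changes of hobo turned, to −0.022 for antisense and −0.22 for sense piRNAs. The sense share of both was lower in csulRM50, with changes of −6.61 points for I-element and −4.55 for hobo.

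By the classes in the files, 19 transposons are germline dominant, 10 intermediate and 6 soma dominant, and 91 have none. The germline dominant class was 55.1% of the csulRM50 library and 44.4% of the w1118 library. Its sense share was 44.8% in csulRM50 and 36.2% in w1118. The median centred change of its members was 0.52 for antisense and 0.88 for sense piRNAs. Of the 19, 6 were higher and 2 lower in antisense piRNAs, beside 19.5% higher and 18.6% lower among all tested. In sense piRNAs 8 were higher and 0 lower, beside 18.6% and 15.9%. The sense share was higher in csulRM50 for 13 of the 19, with a median change of 5.24 points, against 64 of 121 and 0.90 points over all tested. TART-B and opus weighed on the class: with both left out of the class and of the library totals, it was 49.2% in csulRM50 and 43.4% in w1118. The germline dominant 1731 was kept in those shares. TART-B, opus and 1731 together were 14.4% of the whole csulRM50 library and 2.26% of the whole w1118 library.

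The intermediate class was 4.63% of the csulRM50 library and 6.82% of the w1118 library, with medians of 0.08 for antisense and −0.02 for sense piRNAs. Stalker4, a gypsy-group element, had 10407 antisense CPM in csulRM50 and 4363 in w1118 (centred change 1.86), but 1994 sense CPM in csulRM50 and 1693 in w1118 (0.77). The sense share of Stalker4 was 16.1% in csulRM50 and 27.96% in w1118. The LTR element 412 had a share of 68.3% in csulRM50 and 80.3% in w1118. The class as a whole had a sense share of 35.5% in csulRM50 and 32.2% in w1118, and without blood, which was chosen after its values were seen, it was 32.8% in csulRM50 and 44.7% in w1118, the opposite direction. Gypsy2, gypsy3, gypsy4, mdg1 and Idefix had sense share changes between −2.71 and 2.90 points, Quasimodo −7.35 and Stalker2 3.42.

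The soma dominant class was 0.698% of the csulRM50 library and 0.259% of the w1118 library, and this rise was gypsy. It held 48037 of the 59647 read copies of the class in csulRM50. With gypsy left out of the class and of the totals, the class was 0.137% in csulRM50 and 0.169% in w1118. The sense share was lower in csulRM50 for the other 5 members, with −12.7 points for gtwin and −9.29 for gypsy10 beside the values of gypsy5, Tabor and ZAM above. The median over the class was −14.5 points. Without gypsy the pooled sense share of the class was 26.7% in csulRM50 and 40.3% in w1118. Tabor was higher in antisense piRNAs, at 429 CPM in csulRM50 and 156 in w1118 (centred change 2.06). ZAM was lower in sense piRNAs, at 15.3 CPM in csulRM50 and 79.5 in w1118 (−1.76), as was gypsy5 (−1.98).

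A list of 8 elements known for piRNAs of the follicle cells, the class with Idefix and Quasimodo added, had a lower sense share in csulRM50 for 7 of 8, with a median of −10.99 points, against 57 of 121 and a median of 0.90 points over all tested. In the remaining Ago3 libraries the soma dominant class had a sense share of 15.3% in y w, 7.70% in aubWT and 1.31% in aubRK, below both csulRM50 (41.4%) and w1118 (41.9%). These libraries differ in protocol and antibody. The share of the library that the class took was 2.11% in y w, 0.483% in aubWT and 4.77% in aubRK. Whether RNA of follicle cells in the immunoprecipitates plays a part in these values was not tested.

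**Figure D3:**
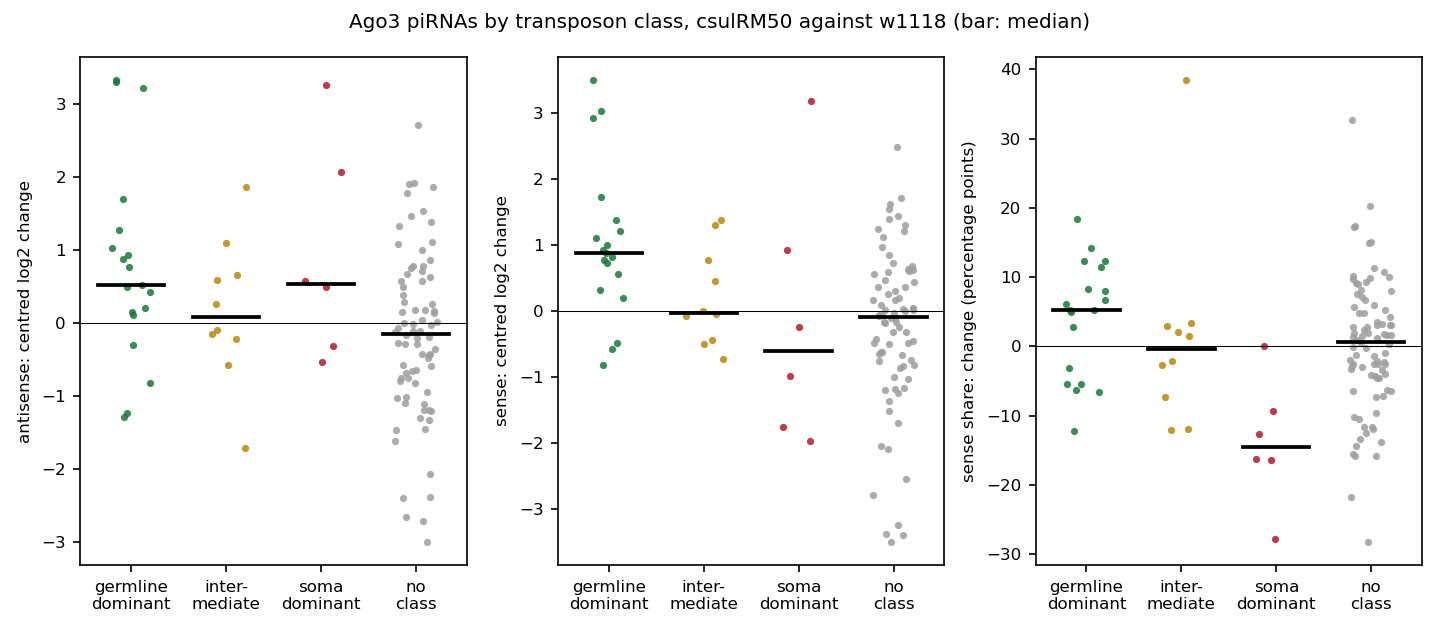
Centred log2 change of antisense (left) and sense (middle) Ago3 piRNAs and change of the sense share in percentage points (right), csulRM50 against w1118, by the class given in the files. Each point is a transposon and each bar the class median. The germline dominant class has medians of 0.52 and 0.88 and a median share change of 5.24 points, and the soma dominant class has medians of 0.53 and −0.62 and −14.5 points.

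Aub libraries of the same genotypes, which share no library with the Ago3 pair but come from the same stocks, gave a nearly equal list of antisense changes. Over the 112 transposons tested in both proteins, the Pearson correlation of the centred antisense changes was 0.986, and 105 had the same sign. Of the 22 transposons higher in Ago3, 21 (95.5%) were higher in Aub, where 24 of 115 (20.9%) were higher. Of the 21 lower in Ago3, 18 (85.7%) were lower in Aub, where 19 of 115 (16.5%) were lower. INE-1 was higher in Ago3 and not past 2-fold in Aub, and BS3, accord and gypsy12 were lower in Ago3 and not past 2-fold in Aub.

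Sense piRNAs of the 2 proteins were less alike. The correlation was 0.908 over 113 transposons, of which 93 had the same sign. Higher in both were 18 of the 21 called in Ago3 (85.7%), where Aub had 27 of 113 (23.9%), and lower in both were 13 of the 18 (72.2%), where Aub had 15 of 113 (13.3%). TART-B had a sense change of 3.50 in Ago3 and 4.61 in Aub, and roo 1.73 in Ago3 and 2.51 in Aub. Transib3 had −3.41 in Ago3 and −1.53 in Aub, and G5 −3.38 in Ago3 and −1.60 in Aub. Hobo sense piRNAs had 0.36 in Ago3 and −1.74 in Aub.

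The sense share itself was higher in csulRM50 for 64 of 121 transposons in Ago3 (median 0.90 points), against 91 of 121 in Aub (median 5.21). The change had the same sign in both proteins for 84 of 121, with a correlation of 0.53. Blood had a sense share of 19.6% in Aub csulRM50 and 1.47% in Aub w1118, and hopper 62.8% in Aub csulRM50 and 29.6% in Aub w1118. For TART-B it was 59.3% in Ago3 csulRM50 and 53.2% in Ago3 w1118, against 46.2% in Aub csulRM50 and 16.2% in Aub w1118. HeT-A had a change of 6.68 points in Ago3 and of 29.3 points in Aub, where its sense share was 58.0% in csulRM50 and 28.6% in w1118. The soma dominant elements with a lower share in Ago3 were mixed in Aub, with 4.03 points for ZAM, 1.81 for gtwin, −1.74 for gypsy10, −3.50 for gypsy5 and −7.77 for Tabor.

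**Figure D4:**
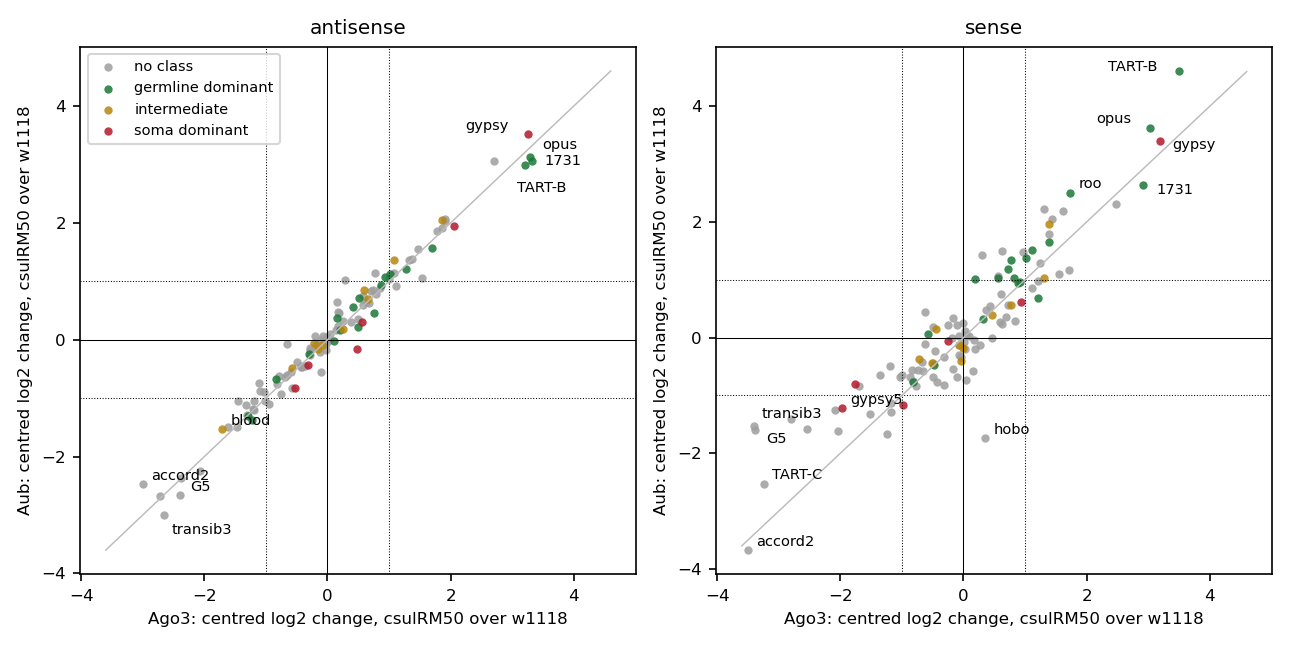
Centred log2 change, csulRM50 over w1118, in Ago3 (x) and Aub (y) libraries, for antisense (left) and sense (right) piRNAs of the transposons tested in both. Antisense changes lie along the grey diagonal of equal change (correlation 0.986 over 112), and sense changes scatter more (0.908 over 113), with hobo, G5 and transib3 away from it.

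How often identical reads occurred differed between the libraries, at 8.25 read copies per entry in csulRM50 and 7.37 in w1118. Per transposon, read copies per entry were taken over both orientations together, so they do not show the orientation that was called. By this measure all 22 transposons higher in antisense and 18 of the 21 higher in sense piRNAs had more in csulRM50. The exceptions were F-element, blood and hopper. TART-B had 13.7 read copies per entry in csulRM50 and 6.45 in w1118, opus 14.6 in csulRM50 and 6.70 in w1118, 1731 12.1 in csulRM50 and 5.57 in w1118, and gypsy 5.08 in csulRM50 and 2.35 in w1118. None of the 18 lower in sense and 1 of the 21 lower in antisense piRNAs, TART-A, had more. Accord2 had 2.13 in csulRM50 and 4.21 in w1118, and blood, lower in antisense and higher in sense, 7.01 in csulRM50 and 10.8 in w1118. Over 117 transposons the change in total copies and the change in copies per entry had a correlation of 0.903. Total copies are entries times copies per entry, so part of this correlation is built in. The same holds for the counts of called transposons above. Without barcodes, identical reads of separate molecules and PCR duplicates cannot be told apart.

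Counting entries in place of read copies kept most directions and shortened the changes. The correlation of both measures was 0.963 for antisense and 0.971 for sense changes, with slopes of 0.669 and 0.672. Past 2-fold with entries were 11 higher and 12 lower transposons in antisense, of which 10 and 12 were also called with read copies, and 12 higher and 14 lower in sense, of which 12 and 13 were. TART-B kept changes of 2.01 and 2.34 for antisense and sense, opus 1.86 and 2.06, 1731 1.92 and 1.81, gypsy 1.98 and 2.01, and accord2 −2.24 and −2.58. The pooled sense share by entries was 45.7% in csulRM50 and 44.0% in w1118, a difference of 1.69 points.

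**Figure D5:**
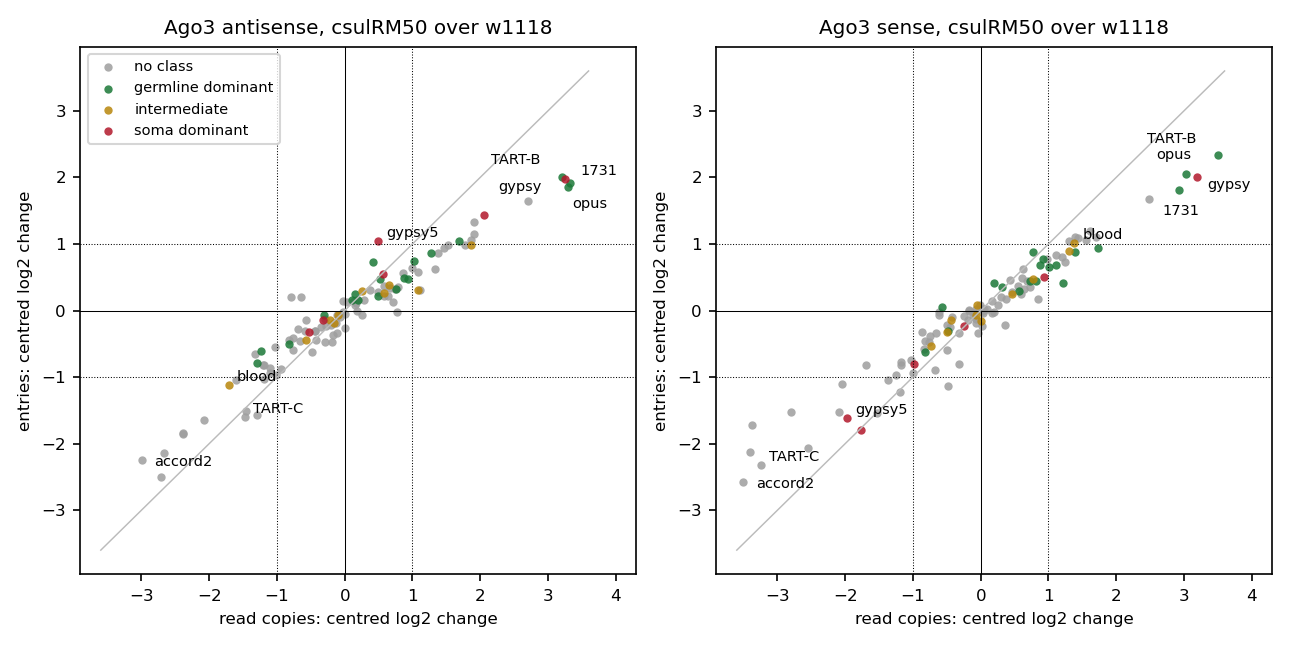
Centred log2 change of Ago3 piRNAs, csulRM50 over w1118, by read copies (x) and by entries (y), for antisense (left) and sense (right). Most transposons keep their sign, and the farthest lie closer to 0 by entries than the grey diagonal of equal change, as TART-B with 3.50 by read copies and 2.34 by entries in sense.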

How the data were processed

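The authors trimmed adaptors with cutadapt 2.3 and mapped reads with STAR 2.4.2a (versions from the submitters' processing notes) to consensus transposons of FlyBase (v9.42), and deposited whole-number counts per transposon and orientation, without normalization: read copies and entries, whose meanings were taken from the column names and values. Reads with equally good matches to more than 1 consensus may be counted on all of them. Transposons that a file does not list were taken as 0. Counts were scaled by the library total on transposons, compared as log2(CPM + 1) and centred on the median of transposons averaging 100 read copies or more. Wilson, Newcombe and Clopper-Pearson 95% intervals cover counting error only. They take each read copy as an independent draw and, with PCR duplicates kept, may be too narrow. In both Ago3 libraries 3 read copies, the limit that a count of 0 allows, are at most 0.351 CPM. Sense shares needed 50 read copies in both libraries. No column was left without a sample.

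The members and lists were chosen with earlier results of these data known. Named are, per orientation, the 8 largest rises and 8 largest falls, the 5 largest rises and falls in sense share, the 5 most abundant transposons, and the members of the telomeric, rDNA, dysgenesis and follicle cell lists and of the soma dominant and intermediate classes. Other transposons were named after their values were seen. Alternatives were entries, TMM (edgeR 4.0.16) and DESeq2 1.42.0 factors (R 4.3.3), no centring or 1 median, no filter or a higher one (1000), a larger pseudocount (10), minimum copies of 10 or 500 for shares, and leaving out the most abundant transposon. Leaving out TART-B, opus, gypsy, blood, 1360 or 1731 was added after seeing the data. Transposons left out were also taken out of the library totals. On simulated counts the comparison recovered 30 of 30 planted changes in each orientation with 0 false calls. The simulation held counting error alone, with planted changes well past 2-fold in abundant transposons, so this outcome was set in advance. It checks the computation and says nothing about false calls between real libraries. Python 3.11.15 with pandas 2.3.3, numpy 2.4.6 and scipy 1.17.1 was used.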

Additional observations from a re-analysis of the deposited data

Results flagged for a closer look

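For 2 transposons the sense share moved by over 10 points in opposite directions in Ago3 and in Aub, each with 1 library per genotype, and the difference between the proteins was not tested. G5 had a change of −15.8 points in Ago3 (35.8% in csulRM50, 51.5% in w1118) and of 18.1 points in Aub (31.4% in csulRM50, 13.3% in w1118), a difference of −33.8 points. Transib3 had −11.6 points in Ago3 (50.4% in csulRM50, 62.0% in w1118) and 27.7 points in Aub (44.2% in csulRM50, 16.5% in w1118), a difference of −39.3 points. Both rested on few read copies in Ago3 csulRM50, 1515 for G5 and 121 for transib3. By entries the Ago3 change was 1.37 points for G5 and −0.485 points for transib3.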

How the results depend on the processing

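With 1 library per genotype no replicate could be left out, no paired analysis was possible because the genotypes share a single replicate number, and depth limits only transposons with few reads. Entries, which count identical reads once, gave 23 transposons past 2-fold in antisense piRNAs against 43, a pooled sense difference of 1.69 points, class shares of the library differing by 7.77 (germline dominant), −1.38 (intermediate), 0.606 (soma dominant) and −6.99 points (no class), class sense shares by 3.97, 1.77, −5.17 and 0.933 points, and class medians of 0.47 and 0.66 (germline dominant, antisense and sense), 0.80 (soma dominant, antisense) and −0.059 (no class, sense). TMM factors gave medians of 0.40 and 0.83 (germline dominant), −0.032 and −0.073 (intermediate), 0.41 (soma dominant, antisense) and −0.26 and −0.14 (no class), and DESeq2 size factors 0.48 and 0.91 (germline dominant) and −0.18 and −0.055 (no class). Without Max-element, class shares differed by 11.4, −2.34, 0.471 and −9.57 points and the germline dominant sense share by 8.36 points. After seeing the data, TART-B was left out (pooled sense difference 4.46 points, germline dominant share 8.37 and sense share 7.21 points), then opus as well (share 5.86), gypsy (soma dominant share −0.033, the opposite direction, and sense share −13.6 points) and blood (intermediate share −0.691 and sense share −11.9 points, the opposite direction). The telomeric share differed by −4.26 points without TART-B, opposite to 0.603 with it, and the copia-group sense share by 7.01 points without 1731, opposite to −1.66 with it. Of 98 values of named transposons, 92 kept their sign with entries, and 38 of the 51 past 2-fold stayed there. With TMM factors 95 kept their sign and 47 stayed, and without centring 84 kept their sign and 42 stayed. The cause of these shifts was not tested.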
